A study of Canis lupus familiaris with 15 samples.

Results

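Genes for channels, membrane transport and trafficking were followed through the canine corpus luteum (CL): CLCN1 (ENSCAFG00000003619), TRPC4 (ENSCAFG00000006044), TMEM65 (ENSCAFG00000025273), KIF5C (ENSCAFG00000005610) and RASEF (ENSCAFG00000001453). They are 5 of the 23630 Ensembl genes in the count table, and all 5 entered the fit of 14922 genes. They had been singled out because the same counts gave them higher expression in antigestagen-treated dogs than at mid-gestation and than at natural prepartum luteolysis. Values of those 2 contrasts are therefore descriptions, and calls given for them are not evidence.

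Messenger RNA of 15 CL was sequenced from poly-A selected RNA, with 1 library per dog, all from cross-breed bitches between 2 and 8 years old. At mid-gestation (days 35 to 40 after ovulation) there were 5 untreated pregnant dogs, Nescafe, Turgay, Dardanel, Gold and Kurtulus. In the antigestagen group there were 5 pregnant dogs (days 40 to 45), Citir, Suzan, Birnur, Seran and Zeynep, given aglepristone, a blocker of the progesterone (P4) receptor, at 10 mg/kg in 2 applications 24 h apart. Their CL were removed 24 h after the last application. Prepartum luteolysis was represented by 3 untreated pregnant dogs, Amy, Kimba and Senta, whose P4 was followed every 6 h from day 58 until 3 consecutive values fell below 2 to 3 ng/ml. The 2 dogs in luteal regression, Lissy and Mara, were not pregnant and were sampled on day 65. The study's methods describe a further dog of this group, which is not analysed here. All pregnant dogs had been mated 2 days after ovulation, so that treated dogs and mid-gestation dogs differ in the day of pregnancy as well as in treatment, and these cannot be told apart.

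The CL is a transient gland whose steroidogenic cells make P4, and in the dog it is the main source of this hormone throughout pregnancy. An antigestagen leaves P4 production in place at first but blocks its receptor, also inside the CL. Ion channels set membrane voltage and calcium entry in such cells, mitochondria carry the first step of steroid synthesis, and motor proteins and small GTPases move organelles and vesicles. CLCN1 is the voltage-gated chloride channel best known for the resting conductance of skeletal muscle. TRPC4 is a calcium-permeable cation channel that opens downstream of receptors coupled to phospholipase C. TMEM65 is a protein of the inner mitochondrial membrane. KIF5C is a heavy chain of kinesin-1, a motor that carries cargo along microtubules, and is best known from neurons. RASEF is a large GTPase of the RAB family with calcium-binding EF-hands.

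Levels are given as CPM, reads of a gene scaled to the size of its library, with TMM normalization of library sizes. Total counts ran from 8558743 in Citir to 26284315 in Kurtulus, with a median of 18313707. The lowest count behind any value below is 10 reads, for CLCN1 in Amy and in Citir. For Amy this corresponds to 0.751 CPM with an exact 95% Poisson interval from 0.36 to 1.38 CPM, which covers counting error only. The lowest counts of the other genes were 38 reads for TRPC4, 82 for TMEM65, 123 for KIF5C and 394 for RASEF. Some marker genes named further below had lower levels, down to 0.0489 CPM for TUBB3 in luteal regression and 0.0522 CPM for ACTA1 at mid-gestation. Ratios of such genes rest in part on fewer reads than that. Gene lengths were not used, so levels are compared between dogs and never between genes. In whole tissue, a lower value can come from fewer cells of a type or from less RNA per cell, and these cannot be told apart. Of the 12 markers of luteal steroidogenic cells, PRLR and CYP17A1 could be paired with an identifier, and both were expressed in all 15 dogs, at 65.8 CPM or more for PRLR and 27.1 CPM or more for CYP17A1. CYP17A1 was at 27.1 to 205 CPM after antigestagen and at 268 to 809 CPM at mid-gestation (log2 ratio −2.27). PRLR went the other way, at 121 to 175 and 67.3 to 145 CPM (log2 ratio 0.55). Neither was called by edgeR in this contrast, where 0% of the 14399 genes tested were called. The paper lists CYP17A1 as higher at mid-gestation than after antigestagen.

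CLCN1 was measured at 1.11 CPM in Citir, 4.46 in Suzan, 15.7 in Birnur, 8.87 in Seran and 21.9 in Zeynep after antigestagen. At mid-gestation it was at 1.05 CPM in Nescafe, 4.16 in Turgay, 2.40 in Dardanel, 1.36 in Gold and 0.899 in Kurtulus. Of the 5 treated dogs, 4 lay above the highest mid-gestation dog, whereas Citir lay within the mid-gestation range. The luteolysis dogs were all low, at 0.751 (Amy), 0.988 (Kimba) and 0.638 CPM (Senta), below each treated dog. The closest were Citir, with 10 reads, and Kimba, with 25 reads, so this separation is narrow. In luteal regression the pair was divided, with 14.4 CPM in Lissy and 2.16 CPM in Mara. Lissy thus had the third-highest level of all dogs. Group means were 10.4 ± 8.43 CPM after antigestagen (SD, n = 5), 8.29 ± 8.68 in luteal regression (n = 2), 1.97 ± 1.36 at mid-gestation (n = 5) and 0.792 ± 0.179 in luteolysis (n = 3).

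TRPC4 followed another order among the treated dogs, at 13.5 CPM in Citir, 7.08 in Suzan, 17.6 in Birnur, 3.19 in Seran and 7.27 in Zeynep. The mid-gestation dogs lay close together, at 3.25 (Nescafe), 4.47 (Turgay), 2.71 (Dardanel), 4.07 (Gold) and 3.16 CPM (Kurtulus). Here Seran was the treated dog within the mid-gestation range, and Citir, low for CLCN1, was the second-highest of all dogs. Amy, Kimba and Senta had 2.85, 4.94 and 4.17 CPM, and Lissy and Mara 7.73 and 6.11 CPM. Both luteal regression dogs were above all luteolysis and all mid-gestation dogs, and inside the range of the treated dogs.

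TMEM65 was the gene that separated the treated dogs from all others. It was at 15.3 CPM in Citir, 28.6 in Suzan, 36.8 in Birnur, 16.6 in Seran and 26.6 in Zeynep. The other 10 dogs reached at most 13.4 CPM. At mid-gestation the values were 7.14 (Nescafe), 7.71 (Turgay), 12.3 (Dardanel), 7.99 (Gold) and 8.88 CPM (Kurtulus). They were 6.16, 8.97 and 9.45 CPM in Amy, Kimba and Senta, and 13.4 and 8.47 CPM in Lissy and Mara. The mean after treatment was 24.8 ± 8.91 CPM (SD, n = 5). As a ratio, the spread among treated dogs was the smallest of the 5 genes, with 2.40 times between the highest and lowest treated dog, against 19.7 times for CLCN1.

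KIF5C had its highest level in Zeynep, at 178 CPM, followed by 75.9 in Birnur, 46.8 in Seran and 35.5 in Suzan, while Citir was at 14.6 CPM. Among the mid-gestation dogs, 4 lay between 10.1 and 15.1 CPM and Kurtulus at 44.7 CPM, so that 3 of 5 treated dogs exceeded all mid-gestation dogs. Luteolysis dogs were at 9.23 (Amy), 11.2 (Kimba) and 14.1 CPM (Senta), below each treated dog. In luteal regression, Lissy at 21.7 CPM was inside the range of the treated dogs, between Citir and Suzan, and Mara at 7.54 CPM had the lowest value of all dogs.

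RASEF was at 53.0 CPM in Citir, 106 in Suzan, 129 in Birnur, 203 in Seran and 298 in Zeynep. At mid-gestation it was at 37.5 (Nescafe), 36.5 (Turgay), 71.4 (Dardanel), 21.1 (Gold) and 41.4 CPM (Kurtulus). Again 4 of 5 treated dogs were above the mid-gestation range, and Citir was inside it. The luteolysis dogs differed among themselves, from 22.8 CPM in Senta over 50.9 in Kimba to 96.3 in Amy. With 141 CPM Lissy was again the third-highest dog, and Mara was at 61.4 CPM.

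**Figure D1:**
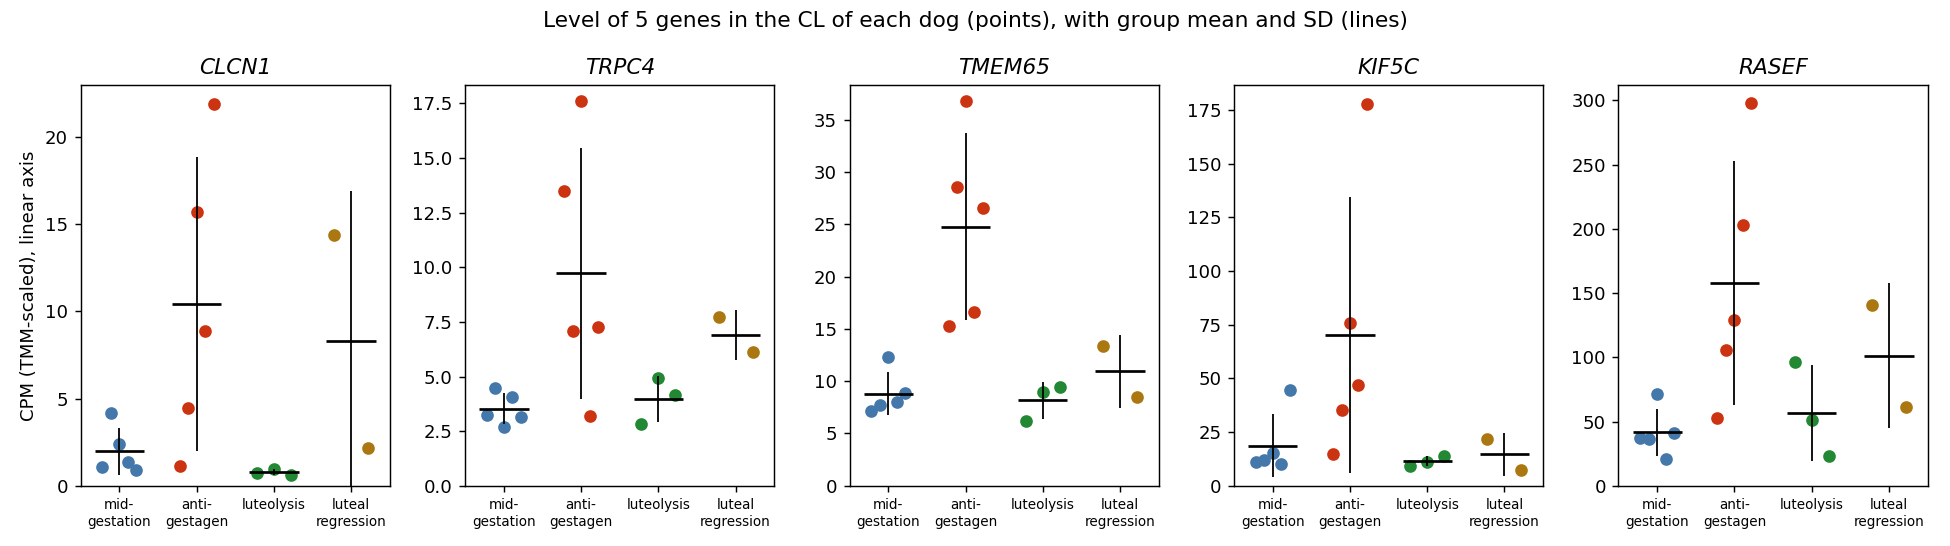
Level of each of the 5 genes (CPM, linear axis from 0, 1 panel per gene) in each dog (points), with the mean (horizontal line) and SD (vertical line, drawn to 0 at the lowest) of the 4 groups. For TMEM65 all 5 treated dogs, from 15.3 to 36.8 CPM, lie above the other 10 dogs, whereas for the other genes treated dogs overlap with at least 1 other group.

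The treated dogs did not keep the same order in all genes. CLCN1 and KIF5C ranked the 5 treated dogs in the same order, with Zeynep highest, then Birnur, Seran, Suzan and Citir. RASEF differed from this order only in that Seran was above Birnur. TMEM65 had Birnur on top and Citir lowest, and TRPC4 had Birnur and Citir on top and Seran lowest. Counted per dog, all 5 genes exceeded the highest mid-gestation dog in Birnur and Zeynep. In Suzan and in Seran 4 genes did, and in Citir 2 genes (TRPC4 and TMEM65). Among untreated dogs, 4 genes did in Lissy, 1 each in Mara, Amy and Kimba, and 0 in Senta. Citir also had the lowest total count of all dogs (8558743), and the part of depth in its values was not tested. For CLCN1, the SD of log2 CPM among treated dogs was 1.66 and for KIF5C 1.33, where the median over the 14922 genes was 0.41. Of these genes, 98.5% and 95.6% varied less among the treated dogs than CLCN1 and KIF5C, respectively. For RASEF, TRPC4 and TMEM65 these shares were 87.8%, 87.6% and 65.0%.

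Zeynep, highest for CLCN1, KIF5C and RASEF, also stood apart by HBA, the alpha chain of haemoglobin and the marker of red blood cells that could be paired with an identifier. HBA was at 790 CPM in Zeynep and between 9.02 and 70.8 CPM in the other treated dogs, and the part of blood content in these levels was not tested. In Birnur, the second-highest dog for CLCN1 and KIF5C, HBA was at 17.9 CPM. Without Zeynep, the log2 ratio of “antigestagen over mid-gestation” went from 1.91 to 1.21 for KIF5C, from 2.40 to 1.93 for CLCN1 and from 1.92 to 1.55 for RASEF.

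**Figure D2:**
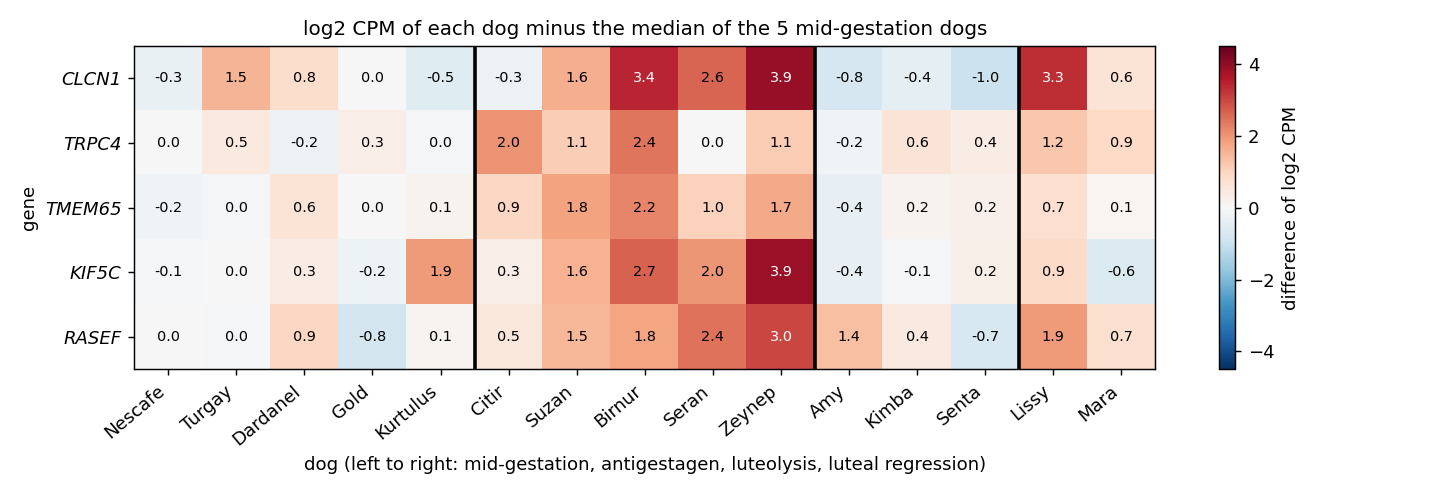
log2 CPM of each dog (columns, by group) minus the median of the 5 mid-gestation dogs, for each gene (rows), with red for higher and blue for lower values. Birnur and Zeynep are raised in every gene, Citir most in TRPC4, Kurtulus most in KIF5C, and Lissy more than Mara in every gene.

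In “antigestagen over mid-gestation”, which chose the genes, the log2 ratios were 2.40 (SE 0.69) for CLCN1, 1.46 (SE 0.37) for TRPC4, 1.5 (SE 0.26) for TMEM65, 1.91 (SE 0.58) for KIF5C and 1.92 (SE 0.47) for RASEF. Their median was 1.91, against 0.02 over the 14399 genes tested. None of the 5 genes was called by edgeR's quasi-likelihood test (p-value below 0.01 and adjusted p-value below 0.1), as was 0% of all genes tested, although all 5 were among the 980 genes (6.81%) that had p below 0.05 before adjustment. DESeq2 called all 5 (87 genes in all) and limma-voom called 1 (18 genes in all). The authors listed these 5 genes for this contrast from DESeq2, so its calls here were fixed beforehand. Groups did not overlap for 1 of the 5 genes, TMEM65, and for 0.667% of all genes in this direction. Nothing is read from these counts, since the genes were chosen on this contrast. Without the mid-gestation dog Kurtulus the log2 ratio of KIF5C was 2.54.

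In “antigestagen over luteolysis”, the other contrast behind the choice, the log2 ratios were 3.69 (SE 0.92) for CLCN1, 1.28 (SE 0.44) for TRPC4, 1.60 (SE 0.32) for TMEM65, 2.61 (SE 0.74) for KIF5C and 1.48 (SE 0.56) for RASEF. CLCN1, TMEM65 and KIF5C were called by edgeR's test and did not overlap between groups, while 4.75% of the 14473 genes tested were called (1.62% in this direction), and 3.53% did not overlap in this direction. Nothing is read from these counts either, and the 3 calls became 0 with the dogs of both groups alone or without Senta, and 1 without Kimba or without Birnur. Without Zeynep the log2 ratio of KIF5C was 1.91, and without the luteolysis dog Amy that of RASEF was 2.08. Both contrasts share the treated dogs, so their likeness is no separate evidence.

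**Figure D3:**
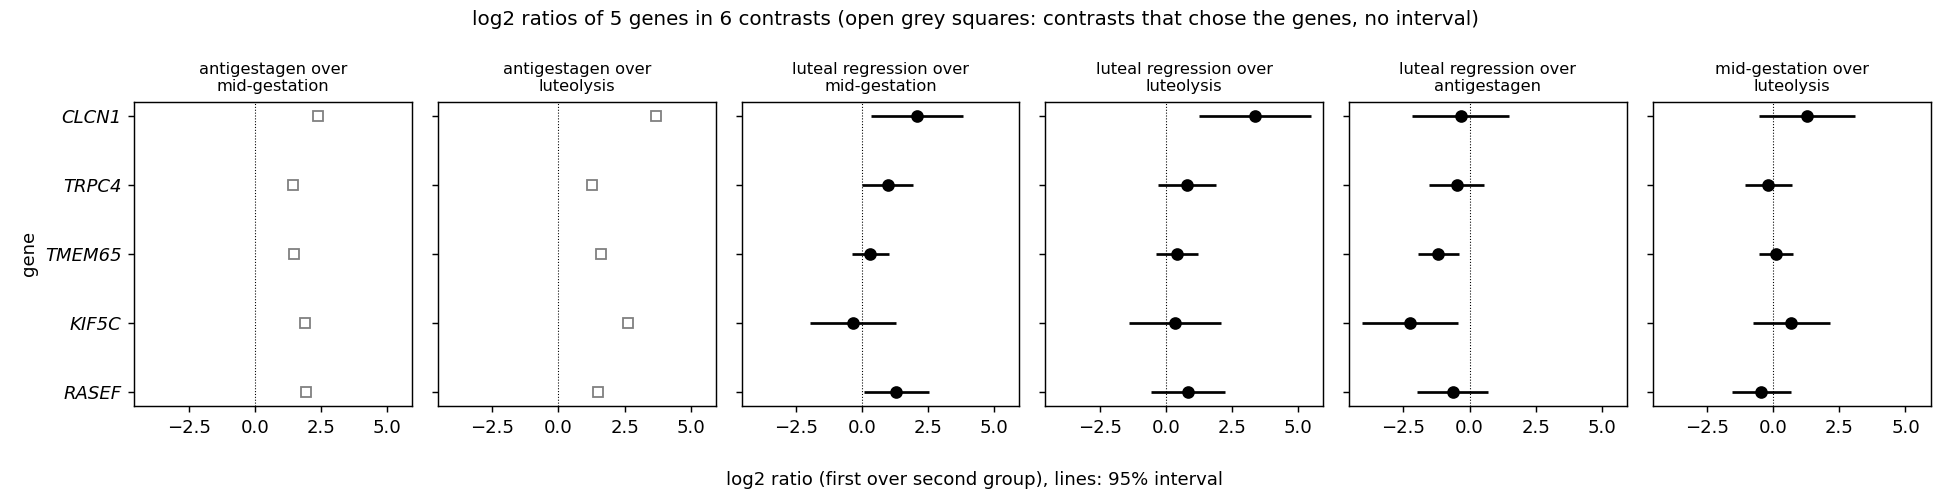
log2 ratios of the 5 genes (rows) in 6 contrasts (panels), first over second group. Open grey squares are the 2 contrasts that chose the genes, shown with no interval, and black points have 95% intervals from edgeR's fit; in luteal regression over antigestagen those of TMEM65 and KIF5C lie below 0 and the other 3 include it.

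The 2 luteal regression dogs were in neither of the 2 contrasts that chose the genes, although the authors fitted the groups as a single factor. Their values describe untreated dogs outside those contrasts. With 2 dogs they cannot show whether higher levels were particular to the treated dogs. The groups they are set against did take part in the choice. In “luteal regression over mid-gestation”, CLCN1 had a log2 ratio of 2.08 (SE 0.81, 95% interval 0.35 to 3.8, edgeR adjusted p = 0.324) and RASEF of 1.28 (SE 0.58, interval 0.06 to 2.51, edgeR adjusted p = 0.341). TRPC4 was at 0.97 (SE 0.46, interval −0.01 to 1.94, edgeR adjusted p = 0.358), with both dogs above the mid-gestation range. TMEM65 and KIF5C had log2 ratios of 0.31 (SE 0.34) and −0.35 (SE 0.77). None of the 5 genes passed edgeR's test, and neither did any of the 14685 genes tested (0%). Before adjustment 2073 of these (14.1%) had p below 0.05, CLCN1 and RASEF among them. DESeq2 called 0 of the 5 genes (332 in all), and limma-voom called RASEF (2741 in all). Groups did not overlap for 1 of 5 genes and for 14.1% of all genes in this direction. The genes had been chosen as low in the mid-gestation dogs, which tilts these ratios upwards. Without Lissy the log2 ratio was 0.13 for CLCN1 and 0.56 for RASEF.

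In “luteal regression over luteolysis” edgeR called 1 of the 5 genes, its only call outside the contrasts of the choice. CLCN1 was 10.3-fold higher in luteal regression (log2 ratio 3.36, SE 0.99, 95% interval 1.25 to 5.47, edgeR adjusted p = 0.0911), higher in 2 of 2 dogs than in each luteolysis dog. The call is 1 of 5 genes, where 5.11% of the 14768 genes tested were called, with 1.52% of those tested higher in luteal regression. It stood close to the threshold, and CLCN1 is also a gene of the lists drawn from this contrast by the authors, so that its direction here is not independent. It was lost in limma-voom (adjusted p = 0.153), with the dogs of both groups alone (edgeR adjusted p = 0.234) and in 11 of the 15 fits without 1 dog. Without Lissy the log2 ratio was 1.42, and without Mara it was 4.16. For TRPC4, TMEM65, KIF5C and RASEF the log2 ratios were 0.79 (SE 0.51), 0.41 (SE 0.37), 0.35 (SE 0.82) and 0.84 (SE 0.65), with edgeR adjusted p-values between 0.43 and 0.854. That of RASEF was 0.11 without Lissy and 1.49 without Amy, and that of TMEM65 was 0.04 without Lissy. Groups did not overlap for CLCN1 and TRPC4, and for 18.6% of all genes in this direction.

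Set against the treated dogs, luteal regression had a negative log2 ratio for each gene, which for CLCN1 turned to 0.47 without Mara and 0.17 without Zeynep and was −2.27 without Lissy. TMEM65 had a log2 ratio (luteal regression over antigestagen) of −1.18 (SE 0.36, 95% interval −1.95 to −0.41, edgeR adjusted p = 0.184), with no overlap between dogs, as in 15.4% of all genes in this direction. KIF5C followed with −2.26 (SE 0.86, interval −4.08 to −0.44, edgeR adjusted p = 0.226). For CLCN1, TRPC4 and RASEF the log2 ratios were −0.33 (interval −2.16 to 1.5), −0.49 (interval −1.52 to 0.54) and −0.64 (interval −1.97 to 0.69), with edgeR adjusted p-values of 0.865, 0.606 and 0.602. These intervals include no difference as well as a clear difference in either direction for CLCN1. None of the 5 genes was called in edgeR, as none of the 14578 genes tested (0%, with 2496 or 17.1% at p below 0.05 before adjustment, TMEM65 and KIF5C among them). DESeq2 and limma-voom each called 2 of the 5, TMEM65 and KIF5C, among 920 and 2408 genes. The genes had been chosen as high in the treated dogs, which tilts these ratios downwards. Both luteal regression dogs lay inside the range of the treated dogs for CLCN1, TRPC4 and RASEF, and 1 of them (Lissy) for KIF5C. That range reaches down into the mid-gestation range, and Lissy for CLCN1 and RASEF and both dogs for TRPC4 were also above all mid-gestation dogs, whereas Mara for CLCN1 and RASEF and Lissy for KIF5C were not.

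Mid-gestation and luteolysis are the groups in which the genes had been chosen as low, so values of both took part in the choice. Such a choice favours likeness of these groups, so nothing is read from the calls and shares of this contrast. In “mid-gestation over luteolysis” the log2 ratios were 1.29 (SE 0.85, 95% interval −0.52 to 3.1) for CLCN1, −0.18 (SE 0.42) for TRPC4, 0.10 (SE 0.30, interval −0.54 to 0.74) for TMEM65, 0.69 (SE 0.68) for KIF5C and −0.45 (SE 0.52) for RASEF. The edgeR adjusted p-values ran from 0.425 to 0.893. None of the 5 genes was called by edgeR, DESeq2 or limma-voom, while 8.16% of the 14669 genes tested were called by edgeR. Before adjustment 0 of the 5 and 20.2% of all genes had p below 0.05, and groups did not overlap for 0 of the 5 and 9.76% of all genes. By group means, CLCN1 and TMEM65 descended from antigestagen over luteal regression and mid-gestation to luteolysis, and TRPC4 and RASEF from antigestagen over luteal regression and luteolysis to mid-gestation. KIF5C descended from antigestagen over mid-gestation and luteal regression to luteolysis. Apart from TMEM65, whose treated dogs were separate from the rest, dogs of neighbouring groups in these orders overlapped, with the exception of luteal regression and luteolysis for TRPC4.

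The luteal regression dogs differed from each other in the same direction in all 5 genes. Lissy was above Mara 6.69-fold for CLCN1, 2.88-fold for KIF5C, 2.30-fold for RASEF, 1.58-fold for TMEM65 and 1.27-fold for TRPC4. Over all 14922 genes the median difference between both dogs was 0.00 on the log2 scale, and the median SD 0.16. A larger difference in favour of Lissy was found in 0.248% of genes for CLCN1, 1.39% for KIF5C, 2.33% for RASEF, 7.75% for TMEM65 and 19.0% for TRPC4. The total counts of these dogs were nearly equal, at 16648029 and 16523232. With 2 dogs, no test was made.

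Across the 15 dogs, the levels of the 5 genes were correlated with a median Pearson's r of 0.69 over their 10 pairs (Spearman's rho 0.62), which the choice of genes raised in the same dogs contributes to. After centring on the group means the median r was 0.45. Within groups, CLCN1 was then correlated with RASEF (r = 0.67), KIF5C (r = 0.64) and TMEM65 (r = 0.57), and KIF5C with RASEF (r = 0.58) and TMEM65 (r = 0.56). The centred r of TMEM65 and RASEF was 0.24. For TRPC4 the centred r was −0.02 with CLCN1, −0.10 with KIF5C, −0.48 with RASEF and 0.33 with TMEM65. These values are descriptions over dogs that share library preparation and scaling.

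The genes whose log2 CPM ran most closely with the mean profile of the 5 over the 15 dogs were MOSPD2 (Pearson's r = 0.94), a protein of membrane contact sites of the endoplasmic reticulum, MRC2 (r = 0.93), a receptor for collagen uptake, and TBL2 (r = 0.90). For CLCN1 the closest were WDFY4 (r = 0.89), ATP2A3 (r = 0.88), a calcium pump of the endoplasmic reticulum, and ENSCAFG00000007613 (r = 0.87). ATP2A3 was highest in Zeynep (37.3 CPM) and Birnur (22.2 CPM), as was CLCN1. KIF5C ran with MOSPD2 (r = 0.92), TRMT12 (r = 0.90) and TBL2 (r = 0.89). Among those closest to TMEM65 were TBL2 (r = 0.89) and SLC11A2 (r = 0.88), an iron transporter. RASEF ran with HACD3 (r = 0.86), PYGB (r = 0.86), a glycogen phosphorylase, and SPATA6L (r = 0.85). The 3 genes closest to TRPC4, with r from 0.82 to 0.85, have no name in the lists used. Names exist almost only for genes that the authors listed for a contrast of these dogs, and the r-values were picked as the highest of 14922 genes.

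TRMT12, an enzyme of tRNA modification, is the gene on one side of TMEM65, with FER1L6 on the other, in the RefSeq annotation of the dog assembly UU_Cfam_GSD_1.0, and was singled out after its values were seen. FER1L6 was not examined. The level of TRMT12 was highest in Zeynep (28.8 CPM) and Birnur (14.6 CPM), and its r with TMEM65 was 0.73, the 54th highest for TMEM65. After centring on the group means this r was 0.41. No gene overlaps CLCN1, TRPC4 or TMEM65 in that annotation. By the span of whole genes it places 1 long non-coding RNA over KIF5C and 3 over RASEF. Overlap of their exons was not examined, and the library kit does not keep the strand. Whether reads of these RNAs entered the counts of KIF5C and RASEF is therefore not known.

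Related channels, motors and GTPases were looked up in 7 lists of 97 genes, 16 of which have an identifier paired with a name. Besides the 5 genes, 11 were tested. They have a name because the authors listed them for some contrast of these dogs, so their calls are not independent. In “antigestagen over mid-gestation” edgeR called none of them, as it called 0% of all genes, and their median log2 ratio was 0.24 against 0.02 over all genes. Of the chloride channel family, the lysosomal CLCN7 had a log2 ratio of 0.21 (SE 0.13) and the channel subunit BSND of −0.63 (SE 0.50). For LETM1, another protein of the inner mitochondrial membrane, it was 0.09 (SE 0.21), for RAB11B, a GTPase of recycling endosomes, −0.02 (SE 0.16), and for ITPR3, a calcium release channel, 0.68 (SE 0.43). None of these related genes was called in any of the 6 contrasts by edgeR's test.

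STIM1, the calcium sensor of the endoplasmic reticulum, was the related gene called in most contrasts, each of them with luteolysis. It was called lower than in luteolysis at mid-gestation (log2 ratio −2.05, SE 0.36, edgeR adjusted p = 0.00947), after antigestagen (−1.5, SE 0.36, edgeR adjusted p = 0.0477) and in luteal regression (−2.52, SE 0.51, edgeR adjusted p = 0.0451). Among all genes tested, 5.73%, 3.12% and 3.58% were called in this direction in these contrasts. Its level was between 110 and 414 CPM in luteolysis, between 74.1 and 153 CPM after antigestagen, between 44.5 and 97.5 CPM at mid-gestation, and 46.7 and 60.7 CPM in luteal regression. The call at mid-gestation held in 15 of 15 fits without 1 dog. That after antigestagen was lost without Kimba or Senta, and that in luteal regression without Senta, Lissy or Mara.

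Genes of other kinesins and of an adaptor were also called higher in luteolysis. In “mid-gestation over luteolysis” they were KIF5A, another kinesin-1 heavy chain (log2 ratio −1.48, SE 0.47, edgeR adjusted p = 0.0884), TRAK2, which links kinesin-1 to mitochondria (−1.04, SE 0.33, edgeR adjusted p = 0.0884), KIF1B (−0.87, SE 0.23, edgeR adjusted p = 0.0479) and KIF3C (−0.90, SE 0.26, edgeR adjusted p = 0.0671). Of 15 fits without 1 dog, the call held in 4 for KIF5A and for TRAK2, in 12 for KIF1B and in 11 for KIF3C. The log2 ratio of KIF5A was −0.91 without Kimba. KIF21A, the remaining kinesin of the lists with a paired name, had −0.93 (SE 0.31) and was not called. Kinesins without a paired name could not be looked up. In the same contrast edgeR also called markers of nerve as lower than in luteolysis, SNAP25 (log2 ratio −3.62) and TUBB3 (−5.08). Of muscle it called ACTA1 (−6.71), RYR1 (−1.41) and MYLK (−2.02) as lower. RBFOX3 (0.27) and TAGLN (−1.81), of the same lists, were not called. ACTA1 ran from 0.601 to 172 CPM in luteolysis and from 0.0522 to 1.52 CPM at mid-gestation, so the groups overlapped. They also overlapped for TUBB3 (0.225 to 49 and 0.216 to 1.73 CPM). So they did for MYLK (80.5 to 1410 and 90.3 to 375 CPM) and RYR1 (13.4 to 40.5 and 6.84 to 14.0 CPM). For SNAP25 they did not (27.2 to 116 and 2.67 to 6.9 CPM). The part of these markers in the values of STIM1 and of the kinesins was not tested.

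KIF5A and KIF5C were not high in the same dogs. KIF5A was highest in Kimba at 63.3 CPM, followed by Lissy at 39.9 and Senta at 39.1 CPM, dogs with 11.2, 21.7 and 14.1 CPM of KIF5C. Zeynep, with 178 CPM of KIF5C, had 8.28 CPM of KIF5A. Of the reads on both genes together, KIF5C held between 50.4% (Citir) and 95.6% (Zeynep) after antigestagen, between 39.0% and 71.1% at mid-gestation, between 15% and 42.9% in luteolysis, and 35.2% and 24.2% in Lissy and Mara. Treated dogs lay above all luteolysis and luteal regression dogs by this share and overlapped with mid-gestation. Since KIF5C was chosen for its level, the share is given without a test, and how reads common to both paralogs were counted is not stated in the sources used here.

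**Figure D4:**
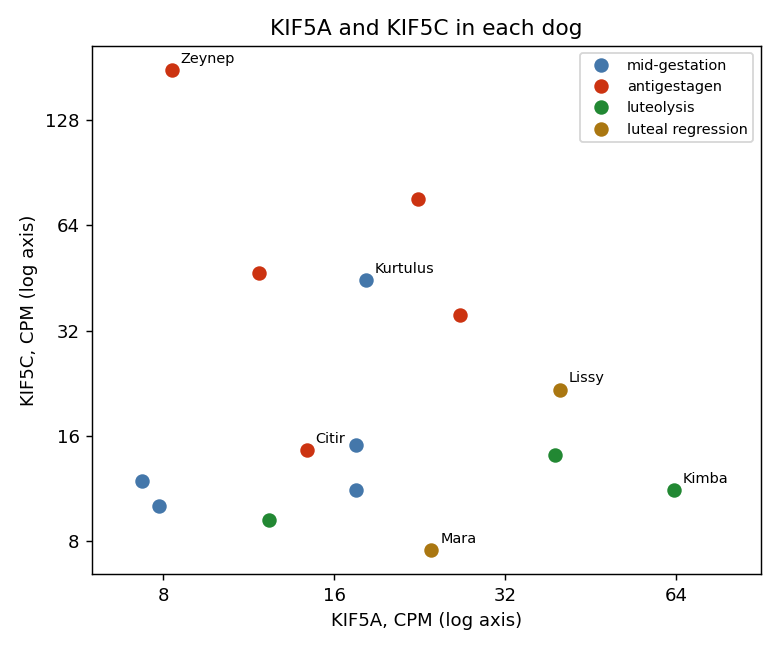
KIF5C against KIF5A in each dog, both in CPM on log axes, coloured by group, with some dogs named. Zeynep combines 178 CPM of KIF5C with 8.28 CPM of KIF5A, and Kimba 11.2 CPM of KIF5C with 63.3 CPM of KIF5A.

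Since CLCN1 is known from skeletal muscle and KIF5C from neurons, markers of other cell types were examined. Of 83 genes in 10 marker lists, 24 have an identifier, and edgeR called none of these in “antigestagen over mid-gestation”, as 0% of all genes. The skeletal muscle markers with an identifier, ACTA1 and RYR1 (2 of 10), summed to between 9.67 and 17.2 CPM after antigestagen and between 6.89 and 15.5 CPM at mid-gestation, and between 14.0 and 213 CPM in luteolysis. The nerve markers TUBB3, SNAP25 and RBFOX3 (3 of 9) summed to between 2.93 and 14.3 CPM after antigestagen, between 5.09 and 8.76 CPM at mid-gestation, between 28.0 and 151 CPM in luteolysis, and 13.4 CPM in both luteal regression dogs. In luteolysis SNAP25 ran from 27.2 to 116 CPM and TUBB3 from 0.225 to 49 CPM, whereas RBFOX3, at 0.601 to 1.3 CPM, was not called in any contrast and had a log2 ratio of 0.27 in “mid-gestation over luteolysis”. Each of the 24 markers with an identifier had reads in all 15 dogs. Of the other lists, leukocyte markers (4 of 12) summed to between 28.8 and 48.5 CPM after antigestagen and between 17.0 and 41.7 CPM at mid-gestation. Epithelium was represented by CLDN4 alone (1 of 7), at 3.56 to 10.1 and 4.85 to 15.1 CPM.

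In the 3 contrasts with luteolysis edgeR also called marker genes, while in the other 3 contrasts 0% of all genes tested were called. In “antigestagen over luteolysis” 7 of the 24 marker genes tested were called as lower (ACTA1, RYR1, TAGLN, MYLK, TUBB3, SNAP25 and INHBA) and FSHR was called as higher, where 3.12% and 1.62% of all genes were. In “mid-gestation over luteolysis” 6 were called as lower and COL1A1 and COL3A1 as higher (5.73% and 2.43% of all genes), and in “luteal regression over luteolysis” 7 as lower (3.58% of all genes). These markers have a name because the authors listed them for some contrast of these dogs. Nothing is therefore read from their counts beside the shares of all genes. Endothelial markers (3 of 8) summed to between 377 and 775 CPM after antigestagen and between 215 and 534 CPM at mid-gestation, those of fibroblasts (4 of 6) to between 3360 and 9210 and between 3680 and 14900 CPM, and those of smooth muscle and pericytes (2 of 9) to between 235 and 407 and between 138 and 822 CPM. The granulosa markers FSHR and INHBA (2 of 5) summed to between 780 and 1970 and between 648 and 1180 CPM. The part of cell composition in the levels of the 5 genes was not tested.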

How the data were processed

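The deposited values are the raw count of each Ensembl gene in each dog, which the authors obtained by aligning single-end reads with STAR 2.5.1b (genome build CanFam3.1) and assigning them with featureCounts. The strand setting is not given in the sources used here. The deposited counts of 10000 or more (3148 values) are rounded to 4 significant digits. Groups were taken from the condition label. For Nescafe, whose description gives another group number, title and condition were followed.

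Where the mean count of a group reached 10 in any of the groups, the gene was kept (14922 of 23630). Kept genes were fitted in edgeR 4.0.16 (R 4.3.3) with TMM scaling and groups as a single factor over all 15 dogs. Each contrast used the quasi-likelihood F-test (two-sided) on genes reaching that count in 1 of both groups, and p-values were adjusted by Benjamini-Hochberg over them. Calls required p below 0.01 and adjusted p below 0.1, as in the study's methods. The SE is the log2 ratio divided by the root of F, and intervals use its degrees of freedom. Log2 CPM used a prior count of 2. The fit was tested on simulated data. Pairs of dogs in a group differed by a chi-square of at least 32.1 per degree of freedom, so that no library was a repeat of another. Nothing beyond the labels says how replicates were processed, and p-values measure the spread between these dogs, pooled over the groups.

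Alternatives were the size factors of DESeq2 1.42.0, its Wald test, limma-voom (limma 3.58.1) with quality weights, a fit on the dogs of both groups alone, no low-count filter, an adjusted p below 0.05, and each dog left out. The 5 genes, the 17 gene lists and the rule for named genes (the 5 genes, the 3 genes of highest Pearson correlation to each and to their mean profile, and at most 4 genes per pathway list) were chosen with earlier results of these data known. Names come from the study's additional gene lists (2970 identifiers), so that 40 of the 180 list entries could be used. These are genes the authors listed for some contrast, and counts over them are not independent. Related genes with calls were followed through the alternatives after the data had been seen. Sequences were not used here. One gene that the rule selects is not reported here.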

Additional observations from a re-analysis of the deposited data

Results flagged for a closer look

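Within groups of 5 dogs, 10 sets of values (5 genes at mid-gestation and after antigestagen) were searched for a dog apart from the others, and chance alone flags about 1 in 20 such sets. The one found was KIF5C in the mid-gestation dog Kurtulus, at 44.7 CPM where the next dog was at 15.1 CPM (gap of 0.855 of the range, critical value 0.71). Kurtulus had the largest library, with 26284315 reads, and the other 4 genes were inside the range of the other mid-gestation dogs or, for CLCN1, just below it at 0.899 CPM.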

How the results depend on the processing

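The number of the 5 genes called in edgeR depended on the test. In “antigestagen over mid-gestation” it was 0, but 5 with DESeq2 and 1 with limma-voom, and 0 to 1 without 1 dog (1 without Citir). In “antigestagen over luteolysis” it was 3, but 5 with DESeq2, 0 with both groups alone, 1 with an adjusted p below 0.05, and 0 (without Senta) to 4 (without Seran) with 1 dog left out. The authors listed the 5 genes for both contrasts from DESeq2, so the DESeq2 calls were fixed beforehand. In “luteal regression over mid-gestation” it was 0, with 1 in limma-voom and 0 in each fit without 1 dog. In “luteal regression over luteolysis” it was 1, but 0 with limma-voom, with both groups alone and with an adjusted p below 0.05, and 0 to 1 without 1 dog. In “luteal regression over antigestagen” it was 0, with 2 in DESeq2 and in limma-voom and 0 in each fit without 1 dog. In “mid-gestation over luteolysis” it was 0 throughout. Over all genes tested, calls in these 6 contrasts, in the same order, were 0, 687, 0, 754, 0 and 1197. Other settings gave 0 to 87, 3 to 2833, 0 to 2741, 0 to 3646, 0 to 2408 and 422 to 3220. Without 1 dog they were 0 to 8, 6 to 2169, 0 to 1, 0 to 1593, 0 to 114 and 112 to 2434. The cause was not tested.

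Directions turned only where the log2 ratio was below its SE. In “mid-gestation over luteolysis” TMEM65 went to −0.08 with limma-voom, −0.07 without Amy and −0.04 without Dardanel (up to 0.23), RASEF to 0.16 with limma-voom and 0.17 without Amy (down to −0.81), and TRPC4 to 0.00 without Kimba (down to −0.36). In luteal regression over mid-gestation TMEM65 went to −0.06 without Lissy, and KIF5C to 0.22 without Mara and 0.28 without Kurtulus (down to −1.31). KIF5C went to −0.61 without Lissy (0.91 without Mara) in luteal regression over luteolysis, and CLCN1 to 0.47 without Mara and 0.17 without Zeynep (−2.27 without Lissy) in luteal regression over antigestagen. Of 740 alternative log2 ratios of the 5 genes and the related genes called, 644 kept direction and call, 66 lost the call, 18 gained it and these 12 turned. The median pairwise r of the 5 genes was 0.45 after centring and 0.60 to 0.72 without 1 dog. The spread of a gene is assumed to be equal in all groups, in the main fit as well as with 1 luteal regression dog left. For CLCN1 the SD of log2 CPM was 0.28 in luteolysis and 1.9 in luteal regression. No paired analysis was possible because each dog belongs to 1 group only.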
